A study of Mus musculus with 16 samples.

Results

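The effect of a T cell receptor (TCR) transgene on gene expression was measured in DN2-3 thymocytes of the B6g7 strain. The 4 arrays compared, of 16 in the study, were chosen by their labels: 2 arrays of BDC/B6g7 DN2-3 cells and 2 arrays of B6g7 DN2-3 cells. B6g7 mice are of the C57BL/6 background and carry the NOD form of the MHC locus, H2g7. BDC/B6g7 mice are the same strain with the BDC2.5 TCR transgene, made from a CD4 T cell clone that attacks pancreatic islets, and B6g7 mice without it (labelled non-Tg) have a polyclonal repertoire. All mice were 4 weeks old. BDC/B6g7 replicate 1 was labelled male, and BDC/B6g7 replicate 2 and both B6g7 arrays were labelled female. Thymocytes were depleted of CD4 and CD8 cells with complement and then sorted by flow cytometry as negative for CD4, CD8 and lineage markers and positive for CD25. The other 12 arrays held the same 2 genotypes on the NOD background and the DN4 stage that follows, again with 2 arrays a group. The labels give neither the promoter that drives the transgene nor whether animals were pooled or separate, so the p-values measure the spread between these samples, which may be technical.

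DN2 and DN3 thymocytes are the stages at which T cell progenitors commit to the lineage under Notch signals and cut and rejoin their TCR genes with the RAG recombinase. A cell that makes a working TCR beta chain pairs it with the invariant pre-TCR alpha chain, and signals of this pre-TCR drive proliferation, end recombination at the beta locus and carry the cell through DN4 towards the double-positive stage. Cells that assemble gamma and delta chains instead take the gamma-delta lineage. Mice with rearranged alpha-beta TCR transgenes can express a complete receptor at these stages, before the endogenous alpha chain would be made.

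Levels are given as log2 of the deposited intensity, replicate 1 before replicate 2. Differences are log2, BDC/B6g7 minus B6g7, with the standard error of a limma model (n = 2 arrays a group). A gene was called where its p, adjusted by Benjamini-Hochberg over 10689 genes tested, was under 0.05. The median intensity of the 4 arrays ran from 123.4 to 131.7, and replicates correlated across probe sets with r = 0.990 in BDC/B6g7 cells and r = 0.995 in B6g7 cells. Xist, Uty, Kdm5d and Eif2s3y read as the labelled sex on each of the 4 arrays. The Y-linked Sry did not separate the sexes (7.59 on the male array and 7.60 to 7.96 on the female ones), nor did the dim Zfy1 and Zfy2, so they were not used for this check or for the background level. Signals up to 5.98, the highest signal of Uty, Kdm5d or Eif2s3y on a female array, were taken as not above background, and where both arrays of a group were no brighter than this, its signal was set to 5.98 and the difference is written as "at least". Il2ra, which encodes the CD25 of the sort gate, read 12.52 and 12.56 in BDC/B6g7 cells, against 12.93 and 12.90 in B6g7 cells. All 14 markers listed for DN2-3 thymocytes were tested, and only Rag2 in BDC/B6g7 cells was not above background.

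BDC/B6g7 DN2-3 cells differed from B6g7 DN2-3 cells in 3138 of 10689 genes, 29.4% of those tested. Of these genes 1800 were higher in BDC/B6g7 cells, 16.8% of those tested, and 1338 were lower, 12.5%. Most of the changes were small, with a median size of 0.48 log2 among the higher and 0.52 among the lower genes. A change of at least 2-fold was seen for 100 higher and 177 lower genes, and of at least 4-fold for 18 higher and 28 lower genes. The Ets factor gene Etv5, the peptide transporter gene Slc15a1 and the sialyltransferase gene St6gal1 led the higher genes, while the ectoenzyme gene Bst1 and the recombinase genes Rag1 and Rag2 stood among the most reduced. For 72.4% of genes tested, called or not, the 2 arrays of one group lay clear of those of the other (BDC/B6g7 above in 41.2%, below in 31.3%), so lack of overlap alone marks no gene out. The calls rest on few arrays. Leaving out any 1 of the 4 left 1625 to 2152 calls, 865 to 1135 higher and 754 to 1068 lower. Without the 4 male arrays of the study, which leaves 1 BDC/B6g7 array, 977 genes were called, 413 higher and 564 lower.

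**Figure D1:**
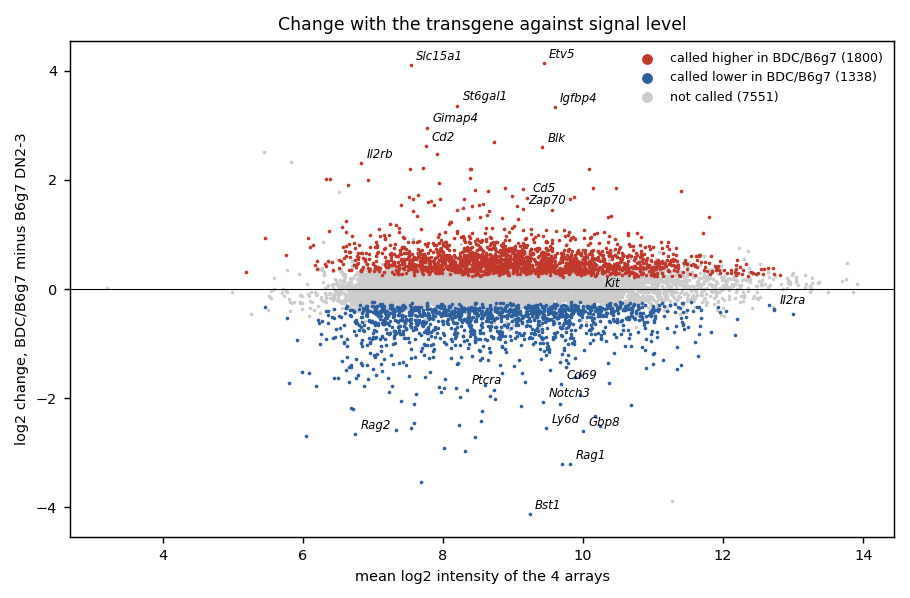
Log2 change, BDC/B6g7 minus B6g7 DN2-3, against the mean log2 intensity of the 4 arrays for each of 10689 genes (1 point a gene; red called higher, blue called lower, grey not called). Etv5 and Slc15a1 stand above 4 log2 and Bst1 below -4; the uncalled grey point at -3.88 is Xist, which follows the 1 male array.

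The recombination machinery fell at its lymphoid core. Rag1, which with Rag2 forms the recombinase that cuts TCR gene segments, read 8.39 and 8.02 in BDC/B6g7 cells, against 11.55 and 11.28 in B6g7 cells (-3.21 ± 0.24, adjusted p = 9.9e-07). Rag2 was not above background in BDC/B6g7 cells at 5.45 and 5.38, against 8.17 and 7.97 in B6g7 cells, lower by at least 2.09 log2 (adjusted p = 2.1e-06). Dntt encodes terminal transferase, which adds untemplated bases at the joins. It read 10.76 and 10.86 in BDC/B6g7 cells, against 11.91 and 11.85 in B6g7 cells (-1.07 ± 0.11, adjusted p = 1.4e-05). The groups did not overlap for any of these genes, which was a condition for Rag1 and Rag2 as members of the largest changes. Of 15 tested genes of V(D)J recombination and end joining, 4 were lower (26.7%, against 12.5% of all genes tested) and 3 higher (20%, against 16.8%). Xrcc6, the Ku70 subunit that binds broken DNA ends, was the other lower gene (-0.67 ± 0.11), while the DNA-bending protein gene Hmgb2 (0.69 ± 0.10), the polymerase gene Poll (0.63 ± 0.11) and Xrcc5, the Ku80 subunit (0.41), were higher. The counts of lower and higher members were the same without each of the 4 arrays. The group means of Rag1 were 8.20 in BDC/B6g7 and 11.42 in B6g7 DN2-3 cells, and 9.57 in BDC/NOD and 11.09 in NOD DN2-3 cells.

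Rag1, Rag2 and the pre-TCR alpha gene Ptcra are 3 genes of antigen receptor assembly that were called lower. The E box letters CANNTG are the core bound by E proteins, which Id proteins inhibit. Promoters of the 3 genes are shown with these letters in capitals. Each is 300 bases, from 250 before to 50 after the RefSeq gene start, read from the GRCm38.p6 promoter table along the gene's strand: Rag1 at chr2:101649483-101649782 (minus), Rag2 at chr2:101624462-101624761 (plus) and Ptcra at chr17:46763663-46763962 (minus).
Rag1: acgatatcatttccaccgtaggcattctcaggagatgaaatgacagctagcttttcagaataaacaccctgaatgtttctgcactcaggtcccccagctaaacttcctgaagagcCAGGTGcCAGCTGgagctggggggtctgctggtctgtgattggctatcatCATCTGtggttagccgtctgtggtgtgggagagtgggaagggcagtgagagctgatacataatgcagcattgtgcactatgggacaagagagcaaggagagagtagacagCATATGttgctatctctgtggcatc
Rag2: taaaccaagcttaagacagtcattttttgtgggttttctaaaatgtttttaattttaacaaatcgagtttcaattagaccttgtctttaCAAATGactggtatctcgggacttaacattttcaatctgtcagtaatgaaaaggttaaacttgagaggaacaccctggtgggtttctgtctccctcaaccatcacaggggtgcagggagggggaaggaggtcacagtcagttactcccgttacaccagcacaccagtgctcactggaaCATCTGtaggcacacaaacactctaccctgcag
Ptcra: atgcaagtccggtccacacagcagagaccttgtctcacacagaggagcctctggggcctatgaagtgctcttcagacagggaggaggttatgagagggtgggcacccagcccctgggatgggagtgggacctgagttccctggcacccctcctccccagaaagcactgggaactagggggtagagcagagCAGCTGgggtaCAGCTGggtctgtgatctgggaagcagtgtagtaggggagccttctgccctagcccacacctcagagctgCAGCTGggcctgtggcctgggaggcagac
Rag1 held 4 matches, Rag2 held 2, and Ptcra held 3, each of the 3 with the letters CAGCTG. The E box letters CANNTG occurred in 62.8% of the 8664 promoters of tested genes, so a match is a description of the letters only. The form CAGCTG, a case of CANNTG that reads the same on both strands, occurred in 14.6% of all these promoters, 17.3% of those of genes called lower and 12.4% of those called higher.

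Genes of the pre-TCR and of Notch signalling fell in part. Ptcra, which encodes the pre-TCR alpha chain, read 7.44 and 7.38 in BDC/B6g7 cells, against 9.25 and 9.26 in B6g7 cells (-1.84 ± 0.16, adjusted p = 2.8e-06). Notch3, a Notch receptor abundant in DN3 cells, read 8.33 and 8.47 in BDC/B6g7 cells, against 10.55 and 10.39 in B6g7 cells (-2.07 ± 0.21, adjusted p = 1.7e-05). Neither gene overlapped between the groups. The CD3 gamma and epsilon genes Cd3g (-0.47 ± 0.09) and Cd3e (-0.36 ± 0.10) were lower by less, and the genes of the CD3 delta and zeta chains, Cd3d (-0.10) and Cd247 (-0.17), were not called. The median change of 22 Notch pathway genes was -0.08, against 0.03 over all genes tested. Of the 22, 7 were lower (31.8%, against 12.5% of all genes tested) and none was higher (against 16.8%). Besides Ptcra and Notch3 these included Hes1, a direct Notch target that represses transcription (-0.49 ± 0.08), and Notch1 (-0.84 ± 0.23). The targets Dtx1 (0.32 ± 0.25) and Nrarp (0.41 ± 0.16) were not called. Leaving out any 1 of the 4 arrays left 3 or 4 lower Notch genes. The adjusted p of Notch1 then ran from 0.047 to 0.0923, that of Cd3e from 0.052 to 0.0707, and that of Il2ra (-0.38) from 0.0951 to 0.127.

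Among TCR gene segments, 3 had a named probe set that passed the filter. Trdv2-2, a delta chain variable segment, read 6.27 and 6.29 in BDC/B6g7 cells, against 8.84 and 8.80 in B6g7 cells (-2.54 ± 0.16, adjusted p = 1.6e-07). Trbv1, a beta chain segment, read 7.94 and 7.71 in BDC/B6g7 cells, against 8.96 and 8.60 in B6g7 cells (-0.95 ± 0.16, adjusted p = 0.00095). The alpha segment Trav13-5 read 8.51 and 8.49 in BDC/B6g7 cells, against 8.78 and 8.98 in B6g7 cells, and was not called (adjusted p = 0.069). The segments used by the BDC2.5 clone were not analysed here.

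Genes listed for the transition to double-positive thymocytes were mostly lower. In all 60% of those tested were lower, against 12.5% of all genes tested, and 12% were higher, against 16.8%. Of 25 tested, 15 were lower and 3 higher, with a median of -0.66, and 14 or 15 were lower without each of the 4 arrays. This list also holds Rag1, Rag2, Ptcra and Dntt, which are on the list of DN2-3 markers too. In B6g7 cells Rag1 and Ptcra had lower group means at DN4 (10.20 and 8.17) than at DN2-3 (11.42 and 9.26). Tdrd5, also on the list, had a higher one (7.76 against 7.32). What the lower members say of progress to the double-positive stage was not tested. Ly6d, a surface antigen of lymphoid progenitors, read 8.17 and 8.23 in BDC/B6g7 cells, against 11.04 and 10.47 in B6g7 cells (-2.55 ± 0.18, adjusted p = 5e-07). Ccr9, the chemokine receptor for thymic CCL25, read 9.31 and 8.66 in BDC/B6g7 cells, against 10.97 and 10.90 in B6g7 cells (-1.95 ± 0.16, adjusted p = 2.6e-06). Also lower were Aqp11, an aquaporin (-1.44 ± 0.13), the repressor gene Bcl6 (-1.22 ± 0.12) and Arpp21, an RNA-binding protein of developing thymocytes (-1.17 ± 0.11). The coreceptor genes did not follow. Cd8b1 was higher, at 8.11 and 7.69 in BDC/B6g7 cells, against 6.83 and 7.08 in B6g7 cells (0.95 ± 0.22, adjusted p = 0.0066), and lost its call without BDC/B6g7 replicate 1 or without B6g7 replicate 1 (adjusted p up to 0.073). Cd8a (0.41 ± 0.18) and Cd4 (-0.21 ± 0.14) were not called. In bulk samples, fewer cells of a type and less RNA per cell cannot be told apart.

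Genes known from gamma-delta and innate-like T cells were more often higher than lower. Of those tested 50% were higher, against 16.8% of all genes tested, and 6.25% were lower, against 12.5%. Of 23 on the array 16 passed the filter on dim signals; 8 of these were higher and 1 lower, with a median of 0.38, and 7 or 8 were higher without each of the 4 arrays. Etv5 encodes an Ets factor induced by strong TCR signals through ERK in gamma-delta thymocytes. It read 11.56 and 11.45 in BDC/B6g7 cells, against 7.31 and 7.42 in B6g7 cells, a 17.6-fold difference (4.14 ± 0.10, adjusted p = 2.4e-11). A second Etv5 probe set differed by 4.20 log2. Blk, a Src-family kinase of B cells and of IL-17-producing gamma-delta T cells, read 10.61 and 10.82 in BDC/B6g7 cells, against 8.14 and 8.08 in B6g7 cells (2.60 ± 0.14, adjusted p = 3.8e-08). Il2rb, the shared beta chain of the IL-2 and IL-15 receptors, read 7.94 and 8.04 in BDC/B6g7 cells and was not above background in B6g7 cells (5.70 and 5.66), a difference of at least 2.01 log2 (adjusted p = 1.1e-07). These 3 genes were also among the largest changes, which were picked without overlap between the groups. Il2rb passed the filter only through BDC groups, its means in the groups without the transgene running from 5.68 to 6.44. The share of higher genes in this list is therefore a description. The scavenger receptor family gene Cd163l1 (1.80 ± 0.11), its relative 5830411N06Rik (1.54 ± 0.10), the Id3 inhibitor of E proteins (1.11 ± 0.13) and the gamma-delta factor gene Sox13 (0.94 ± 0.11) were also higher. Zbtb16, the PLZF factor of innate-like cells (-0.03), Rora (0.04) and Tbx21 (-0.29) were not called, while Plxnd1, a semaphorin receptor, was lower (-0.86), a call lost without any of 3 of the 4 arrays (adjusted p up to 0.0795).

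**Figure D2:**
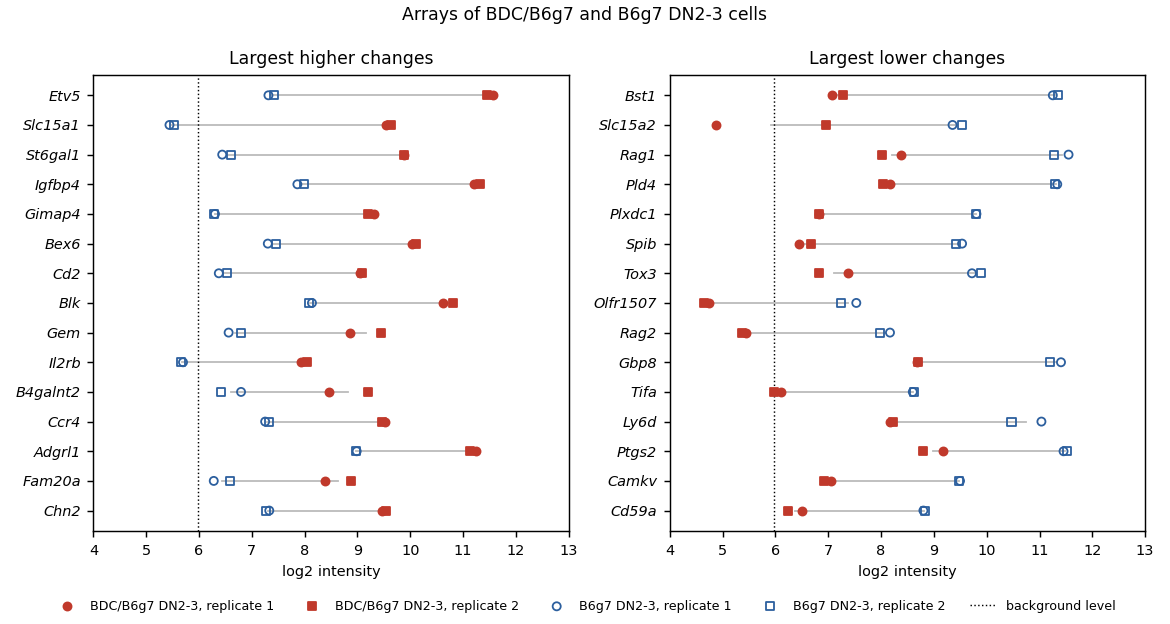
Log2 intensity on each array for the 15 genes with the largest higher and the 15 with the largest lower called change whose groups did not overlap (filled red, BDC/B6g7 DN2-3; open blue, B6g7 DN2-3; circle replicate 1, square replicate 2; dotted line, background level of 5.98; grey line, from mean to mean). The replicates of each group lie close together for most genes; for Slc15a2 the 2 BDC/B6g7 arrays lie at 4.88 and 6.95.

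Genes around the TCR signal moved in both directions. Of 32 tested genes of proximal TCR signalling, 10 were higher (31.2%, against 16.8% of all genes tested) and 8 lower (25%, against 12.5%). Their median change was -0.16. Zap70, the kinase recruited to phosphorylated CD3 and zeta chains, read 9.90 and 9.85 in BDC/B6g7 cells, against 8.43 and 8.39 in B6g7 cells (1.46 ± 0.09, adjusted p = 1.9e-07). The groups were well apart. Rasgrp1, which couples the receptor to Ras (1.04 ± 0.09), and the Tec-family kinase gene Txk (1.12 ± 0.13) were higher as well. Lower were Cblb, a ubiquitin ligase that restrains TCR signals (-1.47 ± 0.09), the adaptor gene Themis (-0.92 ± 0.09) and Pag1, an adaptor that recruits the inhibitory kinase Csk (-0.80 ± 0.16). Leaving out any 1 of the 4 arrays left 5 or 6 higher and 4 to 7 lower.

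Receptors and factors that TCR signals induce in other T cells were split. Of 26 tested, 7 were higher (26.9%, against 16.8% of all genes tested) and 4 lower (15.4%, against 12.5%). No more were higher, and fewer were lower, without each of the 4 arrays. Cd5, a surface inhibitor whose level follows TCR signal strength, read 9.99 and 10.07 in BDC/B6g7 cells, against 8.27 and 8.44 in B6g7 cells (1.68 ± 0.10, adjusted p = 1.3e-07). Pdcd1, the inhibitory receptor PD-1, read 11.05 and 11.07 in BDC/B6g7 cells, against 9.08 and 9.34 in B6g7 cells (1.86 ± 0.10, adjusted p = 7.5e-08). Cd69, an early activation antigen, went the other way, at 9.02 and 8.59 in BDC/B6g7 cells, against 10.52 and 10.60 in B6g7 cells (-1.75 ± 0.19, adjusted p = 2.4e-05). No array of one group reached the other group in any of the 3 genes. Ctla4, an inhibitory receptor, was lower too (-1.17 ± 0.16). Nr4a1, the immediate target known as Nur77, read 12.60 on both BDC/B6g7 arrays, against 11.82 and 11.87 in B6g7 cells. It was not called (0.75 ± 0.35, adjusted p = 0.13), its standard error being that of all 16 arrays, but it was called when only the 4 arrays were fitted (adjusted p = 2e-04). Egr1 (-0.03), Egr2 (-0.13) and Egr3 (-0.17), zinc finger factors of the same early response, were not called.

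Genes listed for MAP kinase feedback and the immediate-early genes did not move as 1 block. Of 15 MAP kinase feedback genes 5 were higher (33.3%, against 16.8% of all genes tested) and 2 lower (13.3%, against 12.5%). Fewer were higher without each of the 4 arrays. The largest change was that of Etv5, an Ets factor rather than an inhibitor, which is counted among the gamma-delta genes as well. Il17rd was higher by 0.36, a call lost without any 1 of the 4 arrays. The phosphatase gene Dusp10 (0.84 ± 0.14) and the Ras pathway inhibitor gene Spred1 (0.69 ± 0.11) were higher, and the EGF receptor inhibitors Errfi1 (-1.09 ± 0.14) and Lrig1 (-0.88 ± 0.15) were lower. Of 20 immediate-early and stress genes 6 were lower (30%, against 12.5% of all genes tested) and 3 higher (15%, against 16.8%). Jun, a subunit of the AP-1 factor, read 9.30 and 9.04 in BDC/B6g7 cells, against 10.86 and 10.64 in B6g7 cells (-1.58 ± 0.25, adjusted p = 6e-04). Junb (-0.91 ± 0.20), the thioredoxin inhibitor gene Txnip (-1.21 ± 0.13) and the antiproliferative genes Btg2 (-1.05 ± 0.12) and Btg1 (-0.72 ± 0.12) were lower. Klf2, a factor of T cell egress, was higher (0.96 ± 0.14).

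Costimulatory, inhibitory and SLAM receptors were the surface group with the most rises. Among those tested 46.4% were higher, against 16.8% of all genes tested, and 10.7% were lower, against 12.5%. Of 28 tested 13 were higher and 3 lower, with a median of 0.26, and 13 were higher without each of the 4 arrays. Cd2, an adhesion receptor that costimulates T cells, read 9.06 and 9.08 in BDC/B6g7 cells, against 6.37 and 6.52 in B6g7 cells (2.62 ± 0.11, adjusted p = 4.3e-09). Cd6, a relative of Cd5 (1.20 ± 0.14), Tigit, an inhibitory receptor (0.85 ± 0.10), Slamf1 (0.81 ± 0.15), Ly9 (0.76 ± 0.10) and Sh2d1a, the adaptor of the SLAM receptors (0.86 ± 0.14), were higher. Cd200, an inhibitory ligand, was not above background in BDC/B6g7 cells (4.97 and 5.47), against 6.58 and 6.90 in B6g7 cells, lower by at least 0.76. The costimulators Cd27 (0.09 ± 0.11) and Cd28 (0.18 ± 0.09) and the thymocyte antigen Thy1 (0.02) were not called.

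Cytokine and chemokine receptors changed gene by gene. Il7r, the receptor for the survival cytokine IL-7, read 10.08 and 10.07 in BDC/B6g7 cells, against 11.22 and 11.01 in B6g7 cells (-1.04 ± 0.11, adjusted p = 1.7e-05). Socs2, a suppressor of cytokine signals, was higher (1.46 ± 0.14), and the stem cell factor receptor gene Kit was not called (-0.05 ± 0.14). Of 23 cytokine receptor and suppressor genes 6 were higher (26.1%, against 16.8% of all genes tested) and 3 lower (13%, against 12.5%), with fewer each way without each of the 4 arrays. Of 24 chemokine receptor, integrin and trafficking genes, 7 were higher (29.2%, against 16.8% of all genes tested) and 7 lower (29.2%, against 12.5%). Ccr4, a chemokine receptor of thymocytes after positive selection, read 9.52 and 9.47 in BDC/B6g7 cells, against 7.25 and 7.32 in B6g7 cells (2.21 ± 0.13, adjusted p = 8.4e-08). S1pr1, the receptor that guides exit from the thymus, read 8.97 and 8.88 in BDC/B6g7 cells, against 6.82 and 7.12 in B6g7 cells (1.95 ± 0.12, adjusted p = 1.7e-07). Ccr8 was higher by at least 1.41, Ccr7 by 1.23 ± 0.17, and the beta integrin genes Itgb2 and Itgb7 by 1.43 ± 0.12 and 1.43 ± 0.21. Without each of the 4 arrays in turn, 7 members were again higher and 3 or 4 lower.

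The genes with the largest changes included several outside these groups. Slc15a1, a transporter of small peptides, read 9.54 and 9.64 in BDC/B6g7 cells and was not above background in B6g7 cells (5.44 and 5.53), a difference of at least 3.61 log2 (adjusted p = 2.2e-11). St6gal1, which adds sialic acid to glycans, read 9.88 and 9.89 in BDC/B6g7 cells, against 6.44 and 6.61 in B6g7 cells (3.36 ± 0.14). Igfbp4, a binding protein of insulin-like growth factors, read 11.21 and 11.31 in BDC/B6g7 cells, against 7.86 and 7.99 in B6g7 cells (3.34 ± 0.11). These 3 genes and Gimap4, a lymphocyte GTPase, were picked among genes without overlap between the groups, so their lack of overlap is no result. Gimap4 read 9.31 and 9.20 in BDC/B6g7 cells, against 6.30 and 6.28 in B6g7 cells (2.96 ± 0.12). Further higher genes were Bex6 (2.69 ± 0.20), the small GTPase gene Gem (2.48 ± 0.16), the latrophilin receptor gene Adgrl1 (2.20 ± 0.14) and Chn2, a Rac GTPase-activating protein (2.20 ± 0.10).

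At the other end, Bst1, a surface enzyme that makes cyclic ADP-ribose and marks early lymphoid cells, read 7.06 and 7.28 in BDC/B6g7 cells, against 11.25 and 11.35 in B6g7 cells, a 17.4-fold difference (-4.12 ± 0.14, adjusted p = 7e-10). Pld4, a nuclease of the endolysosome, read 8.17 and 8.03 in BDC/B6g7 cells, against 11.34 and 11.29 in B6g7 cells (-3.21 ± 0.18). Spib, an Ets factor present in DN3 thymocytes and lost after beta selection, read 6.45 and 6.67 in BDC/B6g7 cells, against 9.53 and 9.42 in B6g7 cells (-2.92 ± 0.20). These 3 genes were likewise picked among genes without overlap between the groups. Also lower were Plxdc1 (-2.97 ± 0.20), Tox3 (-2.70 ± 0.22), the NF-kappaB adaptor gene Tifa (-2.58 ± 0.13), the prostaglandin synthase gene Ptgs2 (-2.51 ± 0.16) and the complement inhibitor gene Cd59a (-2.45 ± 0.17). Slc15a2, a second peptide transporter, read 4.88 and 6.95 in BDC/B6g7 cells, against 9.35 and 9.54 in B6g7 cells. Only 1 of its BDC/B6g7 arrays was above background, so the fitted difference of -3.53 ± 0.62 (adjusted p = 0.001) is not an exact size. Without replicate 1 of BDC/B6g7, the array below background, it was -2.49.

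Genes of the cell cycle were mostly higher, by small amounts. Among those tested 82.2% of mitosis and 61% of DNA replication genes were higher, against 16.8% of all genes tested. Of 45 tested mitosis and spindle genes 37 were higher and none was lower, with a median of 0.52 log2, and of 41 DNA replication genes 25 were higher and 2 lower, with the same median. Kif2c, a motor protein of the mitotic spindle, read 9.47 and 9.48 in BDC/B6g7 cells, against 8.39 and 8.45 in B6g7 cells (1.05 ± 0.15, adjusted p = 0.00022). Birc5, the mitotic survivin, read 8.97 and 8.88 in BDC/B6g7 cells, against 8.05 and 7.75 in B6g7 cells (1.03 ± 0.12, adjusted p = 4.3e-05). Ccne1, the cyclin of entry into DNA replication, read 9.75 and 9.83 in BDC/B6g7 cells, against 8.80 and 8.87 in B6g7 cells (0.96 ± 0.09, adjusted p = 5.3e-06). The arrays of the groups were apart in all 3. The exceptions were Ccnd2, a G1 cyclin (-0.82 ± 0.17), and the inhibitor gene Cdkn1b (-0.35), whose call was lost without any of 3 of the 4 arrays (adjusted p up to 0.161). Without each of the 4 arrays 25 to 30 mitosis and 14 to 18 replication genes were higher.

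Metabolic and growth genes followed the same pattern. Against 16.8% of all genes tested, 61.5% of oxidative phosphorylation, 40.9% of glycolysis and 46.2% of ribosome biogenesis genes were higher. Of 39 genes of oxidative phosphorylation 24 were higher and none was lower (median 0.41), for example the respiratory chain subunits Cox6a1 (0.84 ± 0.15), Ndufa4 (0.74 ± 0.12) and Uqcrq (0.69 ± 0.09). Of 22 glycolysis and pentose phosphate genes 9 were higher and 1 lower (median 0.47), among them the glucose transporter gene Slc2a3 (1.01 ± 0.20) and Pgk1 (0.64 ± 0.12). Of 39 genes of Myc and ribosome biogenesis 18 were higher and none was lower (median 0.30), led by Rrs1 (1.18 ± 0.21) and Bysl (0.73 ± 0.14). Myc itself was not called, at 10.96 and 10.59 in BDC/B6g7 cells, against 11.41 and 10.88 in B6g7 cells. These counts depended on the number of arrays: without each of the 4 arrays they were 13 to 17 for oxidative phosphorylation, 6 to 9 for glycolysis and 3 to 8 for ribosome biogenesis, with none lower in any of the 3 lists in those fits.

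**Figure D3:**
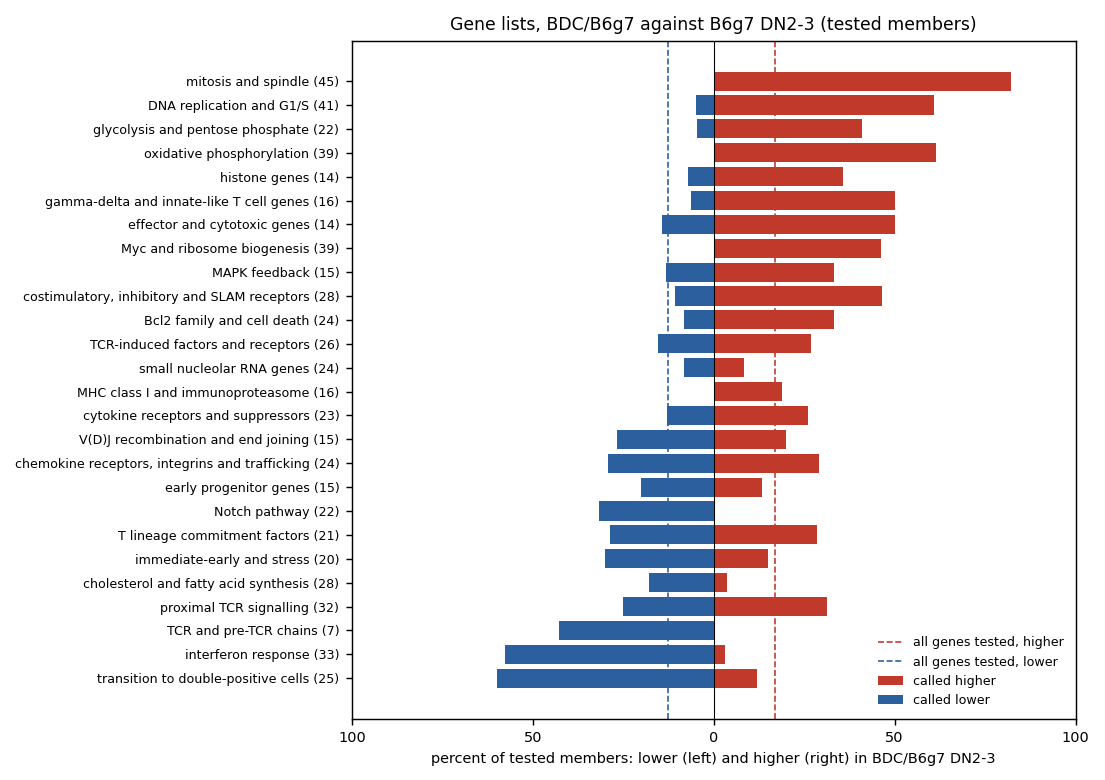
Percent of tested members of each gene list called higher (red, right) or lower (blue, left) in BDC/B6g7 against B6g7 DN2-3 cells, ordered by median change, with the number tested in parentheses. Dashed lines mark all genes tested, 16.8% higher and 12.5% lower; mitosis genes reach 82.2% higher, and transition and interferon genes 60.0% and 57.6% lower.

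Interferon response genes were mostly lower. Lower members made up 57.6% of those tested, against 12.5% of all genes tested, and higher members 3.03%, against 16.8%. Of 37 on the array 33 were tested; 19 were lower and 1 higher, with a median of -0.45, and 12 to 18 were lower without each of the 4 arrays. Zbp1, a sensor of Z-form nucleic acid, read 7.05 and 7.27 in BDC/B6g7 cells, against 8.38 and 8.11 in B6g7 cells (-1.08 ± 0.13, adjusted p = 5.6e-05). Ifih1, the RNA sensor MDA5, read 7.72 and 7.74 in BDC/B6g7 cells, against 8.72 and 8.79 in B6g7 cells (-1.02 ± 0.13, adjusted p = 7.4e-05). The GTPase gene Irgm1, of the interferon-inducible IRG family, read 8.04 and 8.11 in BDC/B6g7 cells, against 9.04 and 8.94 in B6g7 cells (-0.91 ± 0.10, adjusted p = 2.2e-05). The groups did not overlap. Trim30a (-0.99 ± 0.15), Oasl2 (-0.96 ± 0.20) and Irf9, part of the ISGF3 factor (-0.76 ± 0.14), were lower. Ifit1 was not above background in BDC/B6g7 cells (5.86 and 5.88), against 7.24 and 7.46 in B6g7 cells, lower by at least 1.37, though without B6g7 replicate 2 its adjusted p was 0.0617. Usp18 (0.24) and Oas1a (-0.14), also induced by interferon, were not called.

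The promoters of Ifit1 and Irgm1 are shown as 2 interferon genes called lower with 2 matches each to the interferon-stimulated response element. It was searched on both strands as 2 copies of GAAA with 2 bases of any kind between them, and matches are in capitals. They were read from the same GRCm38.p6 RefSeq table, Ifit1 at chr19:34640639-34640938 (plus) and Irgm1 at chr11:48871371-48871670 (minus).
Ifit1: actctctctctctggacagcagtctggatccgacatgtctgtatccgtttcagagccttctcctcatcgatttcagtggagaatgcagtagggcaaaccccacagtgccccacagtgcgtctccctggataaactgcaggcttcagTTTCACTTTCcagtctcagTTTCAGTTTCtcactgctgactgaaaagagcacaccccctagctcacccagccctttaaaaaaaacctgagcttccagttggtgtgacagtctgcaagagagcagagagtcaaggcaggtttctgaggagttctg
Irgm1: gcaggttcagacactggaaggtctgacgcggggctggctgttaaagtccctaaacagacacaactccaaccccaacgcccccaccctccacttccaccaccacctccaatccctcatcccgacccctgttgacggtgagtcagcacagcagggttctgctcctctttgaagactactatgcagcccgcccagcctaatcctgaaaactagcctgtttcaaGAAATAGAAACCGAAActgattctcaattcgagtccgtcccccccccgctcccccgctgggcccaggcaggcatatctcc
In Irgm1 the 2 matches overlap each other. The letters occurred in 2.82% of the 8664 promoters, in 12 of 25 promoters of tested interferon genes (48.0%) and in 8 of 13 of those called lower (61.5%). Other motifs searched on both strands were the ETS core CGGAAG, in 33.4% of all promoters, 36.9% of those of higher genes and 25% of those of lower genes, the EGR site GTGGGCG, in 14.8%, 15.3% and 14.4%, and the AP-1 site TGANTCA, in 4.54%, 3.76% and 5.75%.

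Effector genes and factors of commitment gave mixed counts. Of 25 effector and cytotoxic genes 14 passed the filter. Of these 7 were higher (50%, against 16.8% of all genes tested) and 2 lower (14.3%, against 12.5%). The filter took the highest group mean, so a member high only in BDC groups could pass. The listed gene Serpinb9, called higher, passed only through BDC/B6g7 cells (means of 7.17 at DN2-3 and 7.39 at DN4). S100a4, also called higher, passed only through BDC/B6g7 DN4 cells (7.64). The share of higher genes is therefore a description. Gzma, a granule protease, read 11.50 and 11.31 in BDC/B6g7 cells, against 9.56 and 9.53 in B6g7 cells (1.86 ± 0.14, adjusted p = 1.1e-06). Gzmb was higher (1.00 ± 0.14) and the cytokine gene Ifng lower (-0.80 ± 0.11), while 2 or 3 members were higher without each of the 4 arrays. Of 21 factors of T lineage commitment 6 were higher (28.6%, against 16.8% of all genes tested) and 6 lower (28.6%, against 12.5%). Without each of the 4 arrays 4 to 6 were higher and 2 to 5 lower, and the lower count was 10 after quantile normalization and 3 with centred arrays. The E protein inhibitors Id3 (1.11 ± 0.13) and Id1 (0.81 ± 0.11) and the factor gene Runx3 (0.67 ± 0.15) were higher, and the chromatin organiser gene Satb1 (-0.66 ± 0.10) and the TCF family gene Lef1 (-0.42 ± 0.09) were lower. The E protein gene Tcf3 (0.13 ± 0.21) and the inhibitor gene Id2 (-0.34 ± 0.14) were not called. Gata3, which drives the T lineage, was higher (0.54 ± 0.12), with adjusted p = 0.0543 without B6g7 replicate 2. Bcl11b, the commitment factor, was lower (-0.50 ± 0.16), with adjusted p from 0.0442 to 0.242 without each of the 4 arrays.

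Several defining markers of B, NK and myeloid cells were not above background, while others on the same lists were. The B cell genes Ms4a1 and Cd79a (4.58 to 5.26), the NK cell genes Ncr1, Klrb1c, Klrk1 and Klrd1 (3.68 to 4.71) and the myeloid genes Itgam, Csf1r and Adgre1 (4.75 to 5.94) were not above background on any of the 4 arrays. The B cell factor gene Pax5 (6.14 to 6.23) and the granule genes Mpo (7.01 to 7.72) and Elane (6.30 to 6.43) were above it on all 4. Such readings need not show expression, since the Y-linked Sry read up to 7.96 on a female array. Of 24 myeloid and dendritic cell markers 5 were tested, of which 1 was higher and 1 lower. Lyz2, a lysozyme of myeloid cells, read 6.32 and 5.90 in BDC/B6g7 cells, against 7.93 and 7.57 in B6g7 cells (-1.64 ± 0.22). Cd68, on the same list, went the other way (0.50, adjusted p = 0.0082), with a change of 0.32 to 0.69 without 1 array. The summed intensity of the myeloid list was 1955 to 2097 in BDC/B6g7 cells and 2117 to 2173 in B6g7 cells, and 8 to 11 of its 24 genes were not above background. Of 13 B cell markers 5 or 6 were not above background, and they summed to 1230 to 1234 in BDC/B6g7 cells and 1537 to 1562 in B6g7 cells. Of these 13, 2 were tested, both lower, Cd79b (-0.58 ± 0.10) and Igll1 (-0.40 ± 0.12), the second with an adjusted p of up to 0.166 without 1 array. Coreceptor-positive thymocyte markers summed to 1814 to 1908 in BDC/B6g7 cells, against 1080 to 1150 in B6g7 cells, where Ccr4, Ccr7 and Cd8b1 were higher and Cd1d1 was lower. Mature T cell markers summed to 4787 to 4854 in BDC/B6g7 cells and 4823 to 5162 in B6g7 cells. Of 14, 2 or 3 were not above background. Among those tested 45.5% were higher, against 16.8% of all genes tested, and 18.2% were lower, against 12.5%. Of 11 tested 5 were higher (4 or 5 without each of the 4 arrays), S1pr1, H2-Q2 (1.64), Ccr7, Klf2 and Cd52 (0.72), and 2 lower, Il7r and Itgae; the Cd52 call was lost without any of 3 of the 4 arrays. NK and ILC markers summed to 4037 to 4235 in BDC/B6g7 cells, against 2824 to 3084 in B6g7 cells. Of 13 on the array 7 or 8 were not above background and 5 were tested, with Cd7 (0.97), Gata3 (0.54) and Nfil3 (0.38), which T cells also express, higher, and 1 or 2 higher without each of the 4 arrays. Erythroid markers summed to 2192 to 2484 in BDC/B6g7 cells, against 1667 to 1678 in B6g7 cells, with only the transferrin receptor gene Tfrc called (0.73). DN2-3 markers summed to 38866 to 40346 in BDC/B6g7 cells, against 55249 to 57932 in B6g7 cells. Of them 78.6% were lower, against 12.5% of all genes tested. Of the 14 DN2-3 markers 11 were lower, and 6 to 8 were lower without each of the 4 arrays. The part of these markers in the results above was not tested.

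The transgene effect was then set against that in NOD mice at the same stage, which shares no array with it. There 3808 genes were called (35.6%). Of the 1800 genes higher in B6g7, 1183 were also higher in NOD (65.7%, against 21.5% of all genes tested) and 15 were lower. Of the 1338 genes lower in B6g7, 896 were also lower in NOD (67%, against 14.1%) and 2 were higher. Across all genes tested the effects correlated with r = 0.77, as a description across genes, which are not independent replicates. A test of the difference between the 2 effects called 123 genes, 1.15% of those tested: 88 with a more positive effect in B6g7 (0.823%) and 35 with a more negative one (0.327%). B4galnt2, a glycosyltransferase that is known to vary between mouse strains, had an effect of 2.22 ± 0.23 in B6g7 and -1.01 ± 0.23 in NOD (difference 3.23 ± 0.32, adjusted p = 0.00079). It read 8.46 and 9.19 in BDC/B6g7 cells, against 6.80 and 6.42 in B6g7 cells. Fam20a, a Golgi pseudokinase, had an effect of 2.20 ± 0.20 in B6g7 and -0.16 ± 0.20 in NOD (difference 2.36 ± 0.28, adjusted p = 0.0021). Gzmb rose in B6g7 and fell in NOD (1.00 ± 0.14 and -0.56 ± 0.14, adjusted p of the difference 0.0023). Rxfp1, a relaxin receptor, had effects of -0.74 ± 0.22 in B6g7 and -3.06 ± 0.22 in NOD; the B6g7 effect ran from -1.10 to -0.38 without 1 array and lost its call without any of 3 of the 4. More negative effects in B6g7 were found for Camkv, Ccr9 and Rag1. The Ccr9 effect was -1.95 ± 0.16 in B6g7 and -0.42 ± 0.16 in NOD, where it was not called (adjusted p of the difference 0.0044), and the Rag1 effect was -3.21 ± 0.24 in B6g7 and -1.52 ± 0.24 in NOD (adjusted p of the difference 0.033). The Cd5 effect was larger in B6g7, 1.68 ± 0.10 against 0.82 ± 0.10 (adjusted p of the difference 0.010).

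The NOD DN2-3 replicates differed more than any other pair (r = 0.960), and the count of differences moved with them. It was 265 without NOD DN2-3 replicate 1, 2744 without NOD DN2-3 replicate 2, 56 to 69 without 1 of the 4 B6g7 background arrays and 4 without the male arrays. Leaving out either NOD DN2-3 array leaves 1 array in that group, which then adds nothing to the estimate of spread. A call kept in such a fit is therefore no support for a difference. The Rag1 difference was -1.36 without NOD DN2-3 replicate 1 and -2.03 without NOD DN2-3 replicate 2. Among the 17 differences named for strain here and in the closing section, those of Rag1 and Dhrs3 were lost without any 1 of the 4 arrays. That of Ifitm3 was lost without any of 3 of them, that of Tdrd5 without either of 2, and that of Cd5 without BDC/B6g7 replicate 2 or B6g7 replicate 1. Slc15a2 was not above background in BDC/NOD and NOD DN2-3 cells (group means 5.22 and 5.14), so no effect can be read there.

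**Figure D4:**
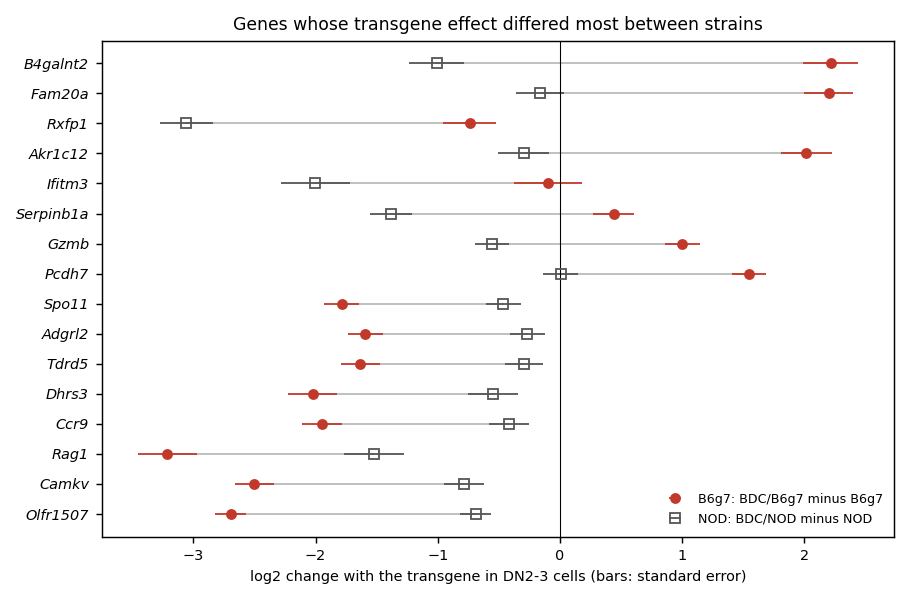
Transgene effect in DN2-3 cells (log2, bars are standard errors) in B6g7 (filled red circles) and NOD (open grey squares) for the 16 genes with the largest called differences between the effects, 8 in each direction. B4galnt2, Akr1c12, Fam20a and Pcdh7 were called higher in B6g7 and not in NOD, and Rag1 and Camkv had more negative effects in B6g7. Sizes for Olfr1507, Tdrd5, Akr1c12, Adgrl2 and Spo11 rest on at least 1 group mean not above background and are not exact.

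A second test set the effect at DN2-3 against that at DN4 within B6g7, again without shared arrays. The labels name no pairing of samples between the stages, and the fit took the arrays as independent. Deviations of same-numbered BDC/B6g7 replicates at DN2-3 and DN4 correlated, however (r = 0.479). At DN4 6336 genes were called (59.3%), 30.1% of genes tested higher and 29.2% lower. The effect differed between the stages for 5805 genes (54.3%), more positive at DN2-3 for 2888 (27%) and more negative for 2917 (27.3%). Across all genes tested the effects were uncorrelated (r = -0.03), as a description across genes, which are not independent replicates. Of the 1800 genes higher at DN2-3, 958 were lower and 447 higher at DN4. Of the 1338 genes lower at DN2-3, 621 were higher and 242 lower at DN4.

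Mitosis and interferon genes were called mostly in opposite directions at the 2 stages. The mitosis list had 37 higher and none lower at DN2-3 (median 0.52), against 1 higher and 42 lower at DN4 (median -1.40). The interferon list had 1 higher and 19 lower at DN2-3, against 19 higher and 3 lower at DN4. Rfc4, a subunit of the clamp loader of DNA replication, changed by 0.79 ± 0.09 at DN2-3 and -2.28 ± 0.09 at DN4 (difference 3.07 ± 0.13, adjusted p = 8.1e-09). Cd8b1 changed by 0.95 ± 0.22 at DN2-3 and -3.06 ± 0.22 at DN4 (difference 4.00 ± 0.31, adjusted p = 4e-07). Cd69 fell at DN2-3 (-1.75 ± 0.19) and rose at DN4 (1.39 ± 0.19). Ccr9 fell at DN2-3 (-1.95 ± 0.16) and rose at DN4 (3.09 ± 0.16), and Itgae, an integrin of epithelial homing, changed by -0.74 ± 0.17 and 4.89 ± 0.17, the first call lost without BDC/B6g7 replicate 1 or B6g7 replicate 1 (adjusted p up to 0.0698). Of the proximal TCR genes 10 were higher and 8 lower at DN2-3, against 25 higher and 1 lower at DN4.

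**Figure D5:**
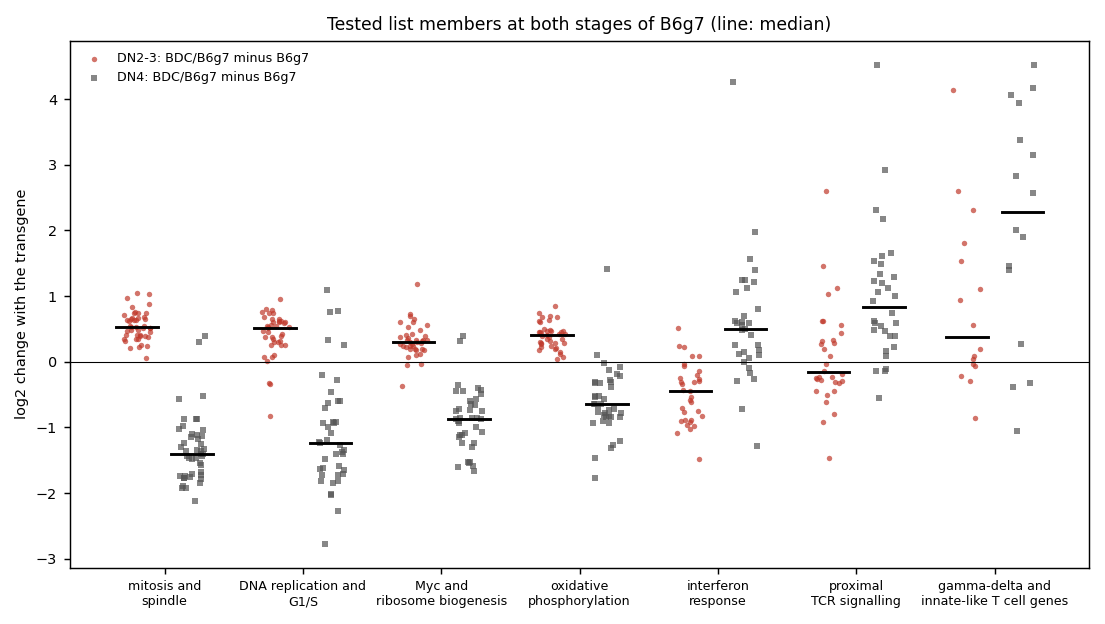
Log2 change with the transgene at DN2-3 (red circles, left of each pair) and DN4 (grey squares, right) in B6g7 for the tested members of 7 gene lists; black lines are medians and points are spread sideways for legibility. Medians of the mitosis list lie at 0.52 and -1.40, and of the interferon list at -0.45 and 0.51.

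For other genes no difference between the stages was called. Etv5 changed by 4.14 ± 0.10 at DN2-3 and 4.17 ± 0.10 at DN4, and the difference was not called (-0.03 ± 0.15, adjusted p = 0.87). Rag1 changed by -3.21 ± 0.24 and -3.44 ± 0.24 (difference 0.23 ± 0.34, adjusted p = 0.60), and Ptcra by -1.84 ± 0.16 and -1.46 ± 0.16 (difference -0.38 ± 0.22, adjusted p = 0.16). Group means of Etv5 were 11.51 in BDC/B6g7 and 7.37 in B6g7 DN2-3 cells, and 12.20 in BDC/B6g7 and 8.03 in B6g7 DN4 cells.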

How the data were processed

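RNA was extracted with Trizol and hybridised to Affymetrix arrays as biotin-labelled target, per the labels' protocols. The deposited values are linear normalized intensities, which the authors made with Affymetrix Power Tools and RMA, per the submitters' processing notes, in versions not given in the sources used here. Of 25108 probe sets, 21157 had 1 gene symbol, 1341 several and 2610 none. The brightest probe set stood for each of 19531 genes, and 10689 genes whose highest group mean was at least 7.05 log2 (132.9 linear) were tested. Log2 values of all 16 arrays were fitted with 8 group means in limma 3.58.1 (R 4.3.3) and moderated by eBayes (8 residual and 5.06 prior degrees of freedom). Every adjusted p in the text is from this limma fit with Benjamini-Hochberg adjustment over the 10689 genes. The procedure was tested on simulated data. The number of arrays limits the precision.

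Members and lists were chosen with earlier results of these data known. Of 957 list entries 853 had a probe set; 104 entries were not analysed here. The genes named are the 15 largest changes each way without overlap between arrays, up to 6 called members a list, the key genes, tested TCR segments and the 8 largest differences each way between effects. Neither the largest changes nor the differences include predicted, clone-named or sex-linked genes. Xrcc5, Aqp11, Bcl6, Arpp21, Plxnd1, Pag1, Tigit, Slamf1, Ly9, Sh2d1a, Cdkn1b, Irf9, Cd52, Gimap6, Pax5, Mpo, Elane, Sry, Xist and the Gbp family were added after their values were seen. Deviations of same-numbered replicates of BDC/B6g7 and B6g7 DN2-3 cells correlated with r = 0.0374. Between DN2-3 and DN4, r was 0.479 in BDC/B6g7 and 0.101 in B6g7 cells, between BDC/B6g7 and BDC/NOD DN2-3 it was 0.383, and over all pairs of groups it ran from -0.254 to 0.585. In the BDC groups replicate 1 was male and replicate 2 female. Alternatives varied the filter, scaling, probe sets, model terms, weights and arrays. Promoters are from RefSeq (GRCm38.p6).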

Additional observations from a re-analysis of the deposited data

Results flagged for a closer look

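The transgene effect at DN2-3 differed between B6g7 and NOD mice in 123 genes by the limma test of the difference, and the following differences are effects in B6g7 minus effects in NOD. B4galnt2 differed by 3.23, Fam20a by 2.36, the relaxin receptor gene Rxfp1 by 2.32, the reductase gene Akr1c12 by 2.31, the interferon-induced membrane protein gene Ifitm3 by 1.91, the protease inhibitor gene Serpinb1a by 1.82, Gzmb by 1.56, the protocadherin gene Pcdh7 by 1.54 and Cd5 by 0.85. Negative differences were those of Olfr1507 (-2.003), Camkv (-1.72), Rag1 (-1.69), Ccr9 (-1.53), the retinal reductase gene Dhrs3 (-1.48), Tdrd5 (-1.34), Adgrl2 (-1.32) and the meiotic gene Spo11 (-1.32). For Olfr1507, Tdrd5, Akr1c12, Adgrl2 and Spo11 at least 1 of the 4 DN2-3 group means was not above the background level of 5.98, so these fitted differences are not exact sizes. For Olfr1507 this held in BDC/B6g7 (4.69), BDC/NOD (4.70) and NOD cells (5.39), and its change in B6g7 is known only as at least -1.40. The effects of Ifitm3 (-0.10) and Serpinb1a (0.44) were not called in B6g7, where NOD mice had effects of -2.0015 and -1.38.

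The effect in B6g7 mice differed between DN2-3 and DN4 in 5805 genes, and the following differences are effects at DN2-3 minus effects at DN4. The 8 largest positive ones were those of Cd8b1 (4.00), the cyclin gene Ccne2 (3.25), the cohesin acetyltransferase gene Esco2 (3.21), the mitotic kinase gene Pbk (3.08), Rfc4 (3.07), Lrr1 (2.96), Cd8a (2.94) and the aminotransferase gene Bcat1 (2.94). The 8 largest negative ones were those of Itgae (-5.63), Ccr9 (-5.04), Rgs1, a regulator of chemokine receptor signals (-4.47), the mast cell carboxypeptidase gene Cpa3 (-4.43), Pld4 (-4.40), Ptgs2 (-4.01), the glutamate receptor gene Gria3 (-3.83) and the nucleotide hydrolase gene Samhd1 (-3.75). The difference of Samhd1 is not an exact size either, since its mean in B6g7 DN4 cells was 5.95, not above background. At DN2-3 the effects of Ccne2 and Samhd1 lost their call without any 1 of the 4 arrays. With 2 arrays a group, no single array could be tested as standing apart from its group.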

How the results depend on the processing

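Without the 4 male arrays, 977 genes were called (413 higher, 564 lower), with 4 differences by strain and 3676 by stage. A 2-fold minimum left 277 (100 higher, 177 lower), 58 by strain and 2419 by stage. Array weights gave 2737 higher genes and 36 differences by strain, and fitting only the arrays compared gave 30 by strain. Leaving out 1 array gave 1625 to 4600 calls, 865 to 2700 higher, 754 to 1900 lower and 56 to 2744 differences by strain; the high ends came without a NOD DN2-3 array. Without either NOD DN2-3 array that group has 1 array and adds nothing to the shared estimate of spread, while the effect sizes within B6g7 stay the same. The causes of the other shifts were not tested. Same-numbered replicates correlated for some groups and not for others, so the numbers were not taken as pairs; with a replicate block 3179 genes were called, 117 by strain and 5823 by stage. Of 190 called named values, 77 kept their call in every setting and 113 did not, 110 of them under the 2-fold minimum and 66 without the male arrays. Signs turned only for uncalled values: Cd27 was -0.0562 after quantile normalization; Egr1 was 0.0215 with centred arrays, 0.0146 without the male arrays and -0.084 to 0.0265 without 1 array; Ifitm3 was -0.3762 to 0.1837 without 1 array. Centring split the calls into 1954 higher and 980 lower and quantile normalization into 1555 and 1670, with the median of all genes at 0.08 and 0.01. After quantile normalization 7 proximal TCR genes were higher and 13 lower, and of the MHC class I genes 1 was higher and 2 lower. Signals near the background level of 5.98 give bounds only.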

Other observations

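Guanylate-binding proteins, interferon-inducible GTPases of defence against intracellular microbes, were strongly lower in BDC/B6g7 DN2-3 cells. The family was picked after Gbp8 had been seen among the largest changes, so its count is a description. Of 8 members with a probe set 6 were tested, and 5 were lower. Gbp8 read 8.68 and 8.71 in BDC/B6g7 cells, against 11.41 and 11.20 in B6g7 cells (-2.61 ± 0.09). Gbp11 (-2.42 ± 0.15), Gbp4 (-2.32 ± 0.14) and Gbp9 (-2.23 ± 0.10) were lower by similar amounts, Gbp7 by less (-0.88 ± 0.10), and Gbp3 was not called (-0.34 ± 0.15). Gbp8, Gbp11, Gbp4 and Gbp9 are on chromosome 5, and Gbp7 and Gbp3 on chromosome 3. Members of a family resemble each other in sequence, and signal shared between probe sets was not tested. At DN4 the effect was -0.19 for Gbp8 and 0.71 for Gbp4.

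Among genes of cell survival, 8 of 24 tested were higher (33.3%, against 16.8% of all genes tested) and 2 lower (8.33%, against 12.5%). Fewer were higher without each of the 4 arrays. The Gimap GTPases of lymphocyte survival made up 5 of the 8. Besides Gimap4, Gimap7 (0.67 ± 0.12), Gimap5 (0.49 ± 0.14) and Gimap6 (0.46 ± 0.11) were higher. Gimap3 was higher too, by 0.79 to 1.07 without 1 array, but lost its call with signals raised to the background level. Bcl2, which blocks apoptosis, was higher (0.44 ± 0.11), and the proapoptotic Bmf was lower (-1.03 ± 0.13), as was the survival gene Mcl1 (-0.61 ± 0.17). Without 1 array the call of Mcl1 was lost in each of 4 cases (adjusted p 0.0541 to 0.0856), of Gimap5 in 3 and of Bcl2 and Gimap6 in 2. Of 14 tested histone genes 5 were higher (35.7%, against 16.8% of all genes tested), among them H2az1 (0.63 ± 0.10). The linker histone gene H1f2 was lower (-0.96 ± 0.14), the only 1 (7.14%, against 12.5%). The higher count moved without 1 array. Of 28 genes of cholesterol and fatty acid synthesis 5 were lower (17.9%, against 12.5% of all genes tested), and fewer without each of the 4 arrays. Among them was Dhcr7 (-0.80 ± 0.20, a call lost without either of 2 arrays), and Ebp was higher (0.68 ± 0.14). Of 15 early progenitor genes 3 were lower (20%, against 12.5% of all genes tested) and 2 higher (13.3%, against 16.8%). Without each of the 4 arrays fewer were lower and no more were higher. Hhex was higher by 0.98 ± 0.13, and Mef2c was lower by a difference of -0.60 ± 0.16 whose call was lost without any 1 array (adjusted p 0.0506 to 0.0852). Of 16 genes of MHC class I and the immunoproteasome 3 were higher (18.8%, near the 16.8% of all genes tested), and fewer without each of the 4 arrays. Of 24 small nucleolar RNA genes 2 were higher and 2 lower (8.33% each way, against 16.8% and 12.5% of all genes tested). Fewer of these were lower without each of the 4 arrays, and no more were higher.

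Slc15a2 read 4.88 in BDC/B6g7 replicate 1 and 6.95 in BDC/B6g7 replicate 2, against 9.35 and 9.54 in B6g7 DN2-3 cells. Its group means on the NOD background were 5.22 in BDC/NOD and 5.14 in NOD DN2-3 cells, not above background.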
